A study of Rattus norvegicus with 24 samples.

Results

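The 40 genes described here carry out or restrain cell division: subunits and accessory factors of DNA replication, cyclins, their kinases and phosphatases, kinase inhibitors, and regulators of mitosis. They were chosen by gene symbol alone. A gene entered if a probe set of the array had a single symbol in the families Mcm, Ccna, Ccnb, Ccnd, Ccne, Cdkn or Cdc25, or one of a set of named symbols such as Pcna, Mki67 and Top2a. They were 40 of the 10411 genes with a probe set of a single symbol. The brightest of the 53 probe sets that matched represented its gene. The symbols Cdk2 and Rrm2 and the Ccna family had no such probe set and were not analysed here. Mcm3ap, Ccndbp1 and Cdkn2aipnl met the rule through the name of a partner protein and are not themselves subunits, cyclins or inhibitors.

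RNA came from the dorsal horn of the spinal cord, on the side of the operated sciatic nerve, of Sprague-Dawley rats, and each sample was hybridised to 1 Affymetrix Rat Expression 230A array. The 4 groups of 6 arrays, described as biologically independent, were adult SNI and adult sham (8 to 12 weeks old), and neonate SNI and neonate sham (labelled postnatal day 10). Spared nerve injury (SNI), studied 7 days later, ties and cuts the common peroneal and tibial branches of the nerve and keeps the sural branch. Sham animals had the nerve exposed only, and all animals had isoflurane anaesthesia. Day 10 may refer to the operation or to tissue collection, which the labels leave unsaid, and no sex is given. Values are log2 expression per probe set, so a difference of 1 is a 2-fold change, and levels of different probe sets are not set against each other. Array medians ran from 5.57 to 5.67 log2, and the lowest correlation between any pair of arrays was 0.984. Of 8 dorsal horn neuron markers 5 had a probe set. Penk, Tac1, Slc17a6 and Slc32a1 lay above the level used to call a probe set measurable on enough arrays, and 1 did not. Of 7 T cell markers 0 did so.

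A dividing cell licenses its replication origins with the Mcm2 to Mcm7 helicase, copies its DNA under the clamp Pcna, and enters mitosis when cyclin B activates Cdk1. D cyclins with Cdk4 or Cdk6 and cyclin E with Cdk2 inactivate the retinoblastoma protein and thereby free E2F factors, which switch on the replication genes. Genes of mitosis peak later through promoter elements called CHR and CCAAT boxes, and Cdkn proteins brake the kinases. In the dorsal horn most neurons have left the cycle before birth, glial cells continue to be produced in the first postnatal weeks, and microglia are known to divide after injury of a peripheral nerve.

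Most of the division machinery was not measurable in this tissue at either age. A probe set was tested if it lay above 3.84 log2, the 40th percentile of all values, on at least 6 arrays. By this rule 17 of the 40 members were tested (42.5%), against 67.3% of all genes with a single symbol. In all, 19 members lay under that level on each of the 24 arrays (47.5%, against 30.0% of all genes), and 11 of 552 values of the 23 members not tested lay above it. Of the tested members 16 were above the level on every array and Mcm4 on 22. The array number and the GCRMA background model limit what can be said below this level: a low value bounds the signal and does not show that a transcript was absent.

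The split was uneven between the roles of the members. All 7 regulators of mitosis fell short of the filter. They were the checkpoint kinase Bub1b, the anaphase-promoting complex activator Cdc20 and its ubiquitin-conjugating partner Ube2c, the mitotic kinases Plk1 and Aurkb, survivin (Birc5), a partner of Aurkb at the centromere, and the proliferation antigen Mki67. Only Birc5 had an array above the level, and it had 1. Both B cyclins, Ccnb1 and Ccnb2, had 0 arrays above it. Among the replication genes 5 of 11 were tested (Mcm4, Mcm7, Pcna, the primase subunit Prim1 and the ribonucleotide reductase subunit Rrm1). Mcm2, Mcm3, Mcm5, Mcm6, thymidylate synthase (Tyms) and topoisomerase II alpha (Top2a) were not. Of the 7 cyclins Ccnd1, Ccnd2, Ccnd3 and Ccne1 were tested, of the kinases and phosphatases Cdk4 and Cdc25b, and of the 7 inhibitors Cdkn1a, Cdkn1b and Cdkn1c. The INK4 inhibitors Cdkn2a, Cdkn2b and Cdkn2c, the kinase-associated phosphatase Cdkn3, and Cdk6 and Cdc25a lay below. Bub1b, Cdk6 and Cdkn2b had the same value, 2.09 log2, the lowest in the data, on all 24 arrays. Over the 23 members not tested the median of the group means was 2.40 log2 in adult SNI, 2.33 log2 in adult sham, 2.34 log2 in neonate SNI and 2.34 log2 in neonate sham animals. Values above the level numbered 3, 1, 2 and 5 of 138 in the same groups.

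**Figure D1:**
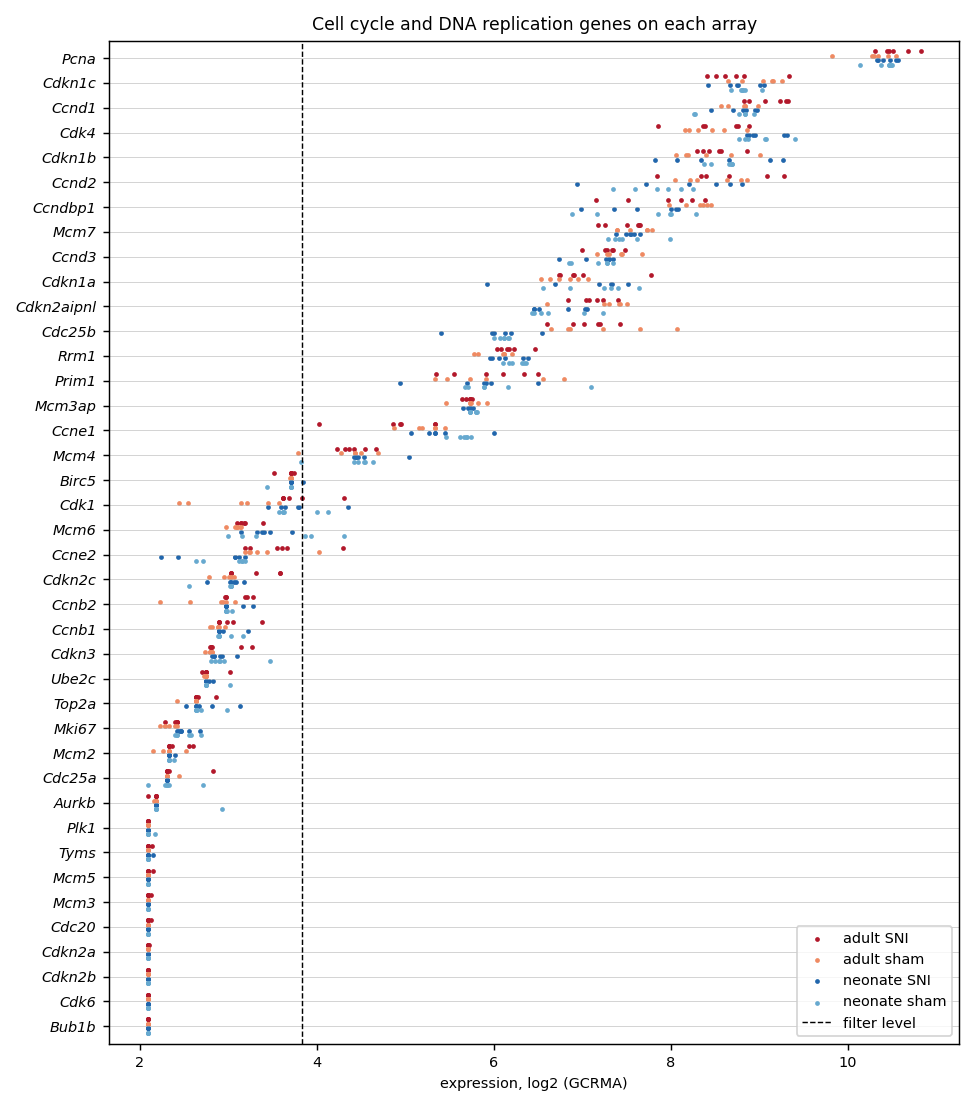
Expression of each of the 40 members on each of the 24 arrays (horizontal axis, log2), with rows of points for adult SNI, adult sham, neonate SNI and neonate sham and a dashed line at the filter level of 3.84 log2. The 17 tested members lie to the right of the line on nearly all arrays and the 23 others to the left on nearly all.

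Promoters were read for 5 members to show how the letters of known cell cycle elements fall in measured and unmeasured genes. They are Cdc25b and Cdk4, which changed with age in both comparisons below, Mcm7, a measured helicase subunit, and Cdk1 and Ccnb2, the core of the mitotic kinase. Each runs 5′ to 3′ on the gene's strand from 250 bases before to 50 after the start in RefSeq, build GRCr8: Cdc25b chr3:138859923-138860222 (+), Cdk4 chr7:64771203-64771502 (+), Mcm7 chr12:22163129-22163428 (-), Cdk1 chr20:19265043-19265342 (+) and Ccnb2 chr8:79981609-79981908 (-). Capitals mark matches on either strand to an E2F element (TTTCCCGC, TTTGGCGC, TTTCGCGC or TTTGCCGC), a CHR element (TTTGAA) or a box with the letters CCAAT, and an E2F and a CCAAT match overlap in Mcm7.
Cdc25b: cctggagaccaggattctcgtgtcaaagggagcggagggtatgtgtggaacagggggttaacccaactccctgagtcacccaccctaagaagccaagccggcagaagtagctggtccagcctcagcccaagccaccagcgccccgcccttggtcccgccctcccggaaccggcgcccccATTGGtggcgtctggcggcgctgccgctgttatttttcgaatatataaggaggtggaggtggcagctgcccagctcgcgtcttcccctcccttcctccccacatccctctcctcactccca
Cdk4: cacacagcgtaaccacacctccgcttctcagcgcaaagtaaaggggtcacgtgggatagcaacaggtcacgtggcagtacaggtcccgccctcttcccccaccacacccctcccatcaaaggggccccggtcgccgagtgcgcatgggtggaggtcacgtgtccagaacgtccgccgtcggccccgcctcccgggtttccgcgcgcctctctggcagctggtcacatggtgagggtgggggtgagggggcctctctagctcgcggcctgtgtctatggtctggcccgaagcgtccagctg
Mcm7: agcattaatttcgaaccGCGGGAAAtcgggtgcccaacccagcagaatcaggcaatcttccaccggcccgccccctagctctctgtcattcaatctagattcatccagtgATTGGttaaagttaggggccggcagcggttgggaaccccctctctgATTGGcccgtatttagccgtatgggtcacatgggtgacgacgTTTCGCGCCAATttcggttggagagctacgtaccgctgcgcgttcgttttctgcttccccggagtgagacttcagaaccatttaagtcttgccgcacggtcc
Cdk1: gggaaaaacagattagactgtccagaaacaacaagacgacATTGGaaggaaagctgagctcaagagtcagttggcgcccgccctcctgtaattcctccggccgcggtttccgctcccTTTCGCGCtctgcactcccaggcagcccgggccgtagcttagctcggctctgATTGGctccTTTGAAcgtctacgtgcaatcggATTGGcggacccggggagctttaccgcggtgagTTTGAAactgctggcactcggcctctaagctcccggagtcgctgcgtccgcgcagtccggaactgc
Ccnb2: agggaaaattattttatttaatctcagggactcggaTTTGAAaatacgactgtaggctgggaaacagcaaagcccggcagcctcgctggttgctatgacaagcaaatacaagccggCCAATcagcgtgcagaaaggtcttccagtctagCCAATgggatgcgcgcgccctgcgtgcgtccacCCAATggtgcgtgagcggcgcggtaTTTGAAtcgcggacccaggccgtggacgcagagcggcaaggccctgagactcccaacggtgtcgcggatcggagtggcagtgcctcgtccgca

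The Cdk1 promoter held 1 E2F, 2 CHR and 3 CCAAT matches, that of Ccnb2 0, 2 and 3, that of Mcm7 2, 0 and 3, that of Cdc25b 0, 0 and 1, and that of Cdk4 0 of each. Ccnb1, the other B cyclin and also not tested, had 0, 0 and 2 in its promoter, which is not shown. The table held promoters for 31 of the 40 members, 12 of them tested on the arrays. CHR letters occurred in 11 of the 19 promoters of members that were not tested and in 0 of the 12 of tested members, against 18.1% of all 27457 rat promoters of this length. E2F letters occurred in 7 of the 19 and 1 of the 12, against 2.25% of all promoters, and CCAAT in 13 of the 19 and 8 of the 12, against 37.7%. All 7 regulators of mitosis, the B cyclins and Cdk1 were among the members not tested, so this split is also one by role. Testing and role cannot be told apart in these counts. They are counts of letters in a fixed window and do not show that a factor binds.

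The comparison of adult with neonate sham animals asked which members differ with age. Cdc25b, the phosphatase that activates cyclin-dependent kinases, rose, Cdk4, the kinase partner of the D cyclins, fell, and Cdkn2aipnl rose. These are 3 of 17 tested members (17.6%), against 16.3% of all 9638 probe sets tested (7.51% higher, 8.81% lower). In this fit the share of members called was close to that of the array as a whole. With the replicate number as a block 6 members passed (35.3%), against 25.6% of probe sets. The members' median difference was -0.03 log2 and that of all probe sets tested -0.03 log2. With whole tissue, fewer cells of a type and less RNA per cell cannot be told apart.

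Cdc25b measured 6.65, 8.07, 6.87, 7.23, 7.65 and 6.84 log2 in adult sham animals, against 6.12, 6.00, 6.07, 6.17, 6.12 and 6.16 log2 in neonate sham animals. Every adult array lay above every neonate array, and the adult arrays were more spread (SD 0.55 against 0.06). Cdc25b was 2.16-fold higher in adults (1.11 log2, SE 0.20, limma adjusted p = 2.8e-04), rank 303 of the 9638 probe sets by p. The groups did not overlap in the same direction for 4.31% of probe sets.

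Cdk4 measured 8.47, 8.86, 8.30, 8.16, 8.20 and 8.60 log2 in adult sham animals, against 9.40, 9.07, 8.77, 9.07, 8.84 and 8.87 log2 in neonate sham animals. Only the second adult array reached the range of the neonates. The difference was -0.57 log2 (SE 0.15, limma adjusted p = 0.0111), or 0.672 of the neonate level.

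Cdkn2aipnl, named for its likeness to a protein that binds the Cdkn2a product, measured 6.60, 7.42, 7.51, 7.31, 7.41 and 7.25 log2 in adult sham animals, against 6.53, 7.23, 6.45, 6.61, 7.02 and 6.43 log2 in neonate sham animals. The groups overlapped through the first adult array. The difference was 0.54 log2 (SE 0.16, limma adjusted p = 0.0226), but the gene's dimmer probe set gave -0.04 log2 (SE 0.09, adjusted p = 0.844). The call was also lost without adult sham 3 or 5 or neonate sham 3 or 6 (adjusted p = 0.0522, 0.0507, 0.0526 and 0.0602), and with only the sham groups fitted (adjusted p = 0.0546).

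The other 14 members did not pass in the sham comparison in the fit without the block. Among the cyclins, Ccne1, which activates Cdk2 at the start of replication, had 4.87, 5.16, 5.19, 5.34, 5.34 and 5.45 log2 in adult sham animals, against 5.67, 5.69, 5.62, 5.46, 5.74 and 5.70 log2 in neonate sham animals. All adult arrays lay below all neonate arrays, as for 4.06% of probe sets, yet the difference of -0.42 log2 (SE 0.17) had a limma adjusted p of 0.0937, or 0.00949 with only the sham groups fitted. Ccnd2, a D cyclin of neural and glial progenitors, averaged 8.47 ± 0.33 log2 in adult and 7.85 ± 0.33 log2 in neonate sham animals (SD, n = 6 each; limma adjusted p = 0.122, or 0.0299 with only the sham groups fitted). Ccnd3 differed by 0.25 log2 and Ccnd1 by 0.13 log2 (adjusted p = 0.155 and 0.543). The cyclin D binding protein Ccndbp1 differed by 0.59 log2 (adjusted p = 0.091). With the replicate block Ccnd2, Ccnd3 and Ccndbp1 passed limma's test (adjusted p = 0.00772, 0.0401 and 0.0239).

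None of the 5 tested replication genes was called with age in sham animals, and the other 6 were not tested. Pcna averaged 10.29 ± 0.25 log2 in adult and 10.40 ± 0.14 log2 in neonate sham animals (SD, n = 6 each; limma adjusted p = 0.51). Rrm1 had a difference of -0.23 log2 (SE 0.09, adjusted p = 0.1), Prim1 -0.10 log2 (adjusted p = 0.85), Mcm4 -0.05 log2 (adjusted p = 0.856) and Mcm7 0.08 log2 (adjusted p = 0.707). For Mcm7 the 95% confidence interval ran from -0.15 to 0.31 log2, and for Pcna from -0.33 to 0.10 log2. That of Prim1 was wider, from -0.68 to 0.47 log2, and that of Rrm1 ran from -0.43 to -0.04 log2. Of the inhibitors, Cdkn1a (p21) had -0.37 log2, Cdkn1b (p27) -0.17 log2 and Cdkn1c (p57) 0.18 log2, with adjusted p of 0.29, 0.614 and 0.411. Mcm3ap, a partner of Mcm3, had -0.03 log2 (adjusted p = 0.801).

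The same ages were compared in the SNI animals, a set of arrays that shares none with the sham comparison. Cdc25b was again higher and Cdk4 again lower in adults, and Ccne1 passed the test here while Cdkn2aipnl did not. That is 3 of 17 members, against 20.9% of all probe sets (9.32% higher, 11.5% lower). With the replicate number as a block 6 members passed (35.3%), against 30.5% of probe sets.

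Cdc25b measured 7.20, 7.18, 7.42, 6.90, 7.02 and 6.60 log2 in adult SNI animals, against 6.19, 6.00, 6.13, 6.54, 5.40 and 5.98 log2 in neonate SNI animals. No arrays overlapped, as for 4.73% of probe sets in this direction, and the gene was 2.02-fold higher in adults (1.01 log2, SE 0.20, limma adjusted p = 5.7e-04). Cdk4 measured 8.74, 8.88, 7.85, 8.75, 8.36 and 8.39 log2 in adult SNI animals, against 9.28, 9.31, 8.96, 8.93, 8.89 and 8.86 log2 in neonate SNI animals. Again only the second adult array reached the neonate range, and the difference was -0.54 log2 (SE 0.15, limma adjusted p = 0.0132).

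Ccne1 measured 4.95, 5.34, 4.86, 4.02, 4.93 and 5.34 log2 in adult SNI animals, against 5.34, 5.34, 5.27, 5.45, 6.01 and 5.07 log2 in neonate SNI animals. The groups overlapped, with adult array 4 the lowest and neonate array 5 the highest. The difference was -0.50 log2 (SE 0.17, limma adjusted p = 0.0365). The call was lost without adult SNI 3, 4 or 5 or neonate SNI 2, 4 or 5, with -0.33 log2 (adjusted p = 0.0974) without adult SNI 4 and -0.39 log2 (adjusted p = 0.106) without neonate SNI 5.

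Cdkn2aipnl had a difference of 0.41 log2 (SE 0.16, adjusted p = 0.0755) and Ccnd1 of 0.31 log2 (SE 0.13, adjusted p = 0.081) in the SNI animals. With the replicate block Cdkn2aipnl, Ccnd1 and Ccnd2 passed limma's test (adjusted p = 0.0213, 0.0211 and 0.0376). Cdkn2aipnl passed after quantile normalization (adjusted p = 0.0412). Ccnd1 passed without adult SNI 1 (adjusted p = 0.0472) and in its second probe set (0.28 log2, adjusted p = 0.0471), while the dimmest gave 0.19 log2 (adjusted p = 0.51). Without the block, the difference was 0.46 log2 for Ccnd2 (adjusted p = 0.246), 0.21 log2 for Ccndbp1 and 0.12 log2 for Ccnd3. The replication genes lay between -0.14 log2 for Mcm4 and 0.14 log2 for Prim1, with Pcna at 0.10 log2, Rrm1 at 0.05 log2 and Mcm7 at -0.06 log2. The inhibitors were nearer to 0, with 0.01 log2 for Cdkn1a, -0.03 log2 for Cdkn1b and -0.04 log2 for Cdkn1c, and Mcm3ap had -0.01 log2. In the fit without the block, the smallest adjusted p from Ccndbp1 to Mcm3ap in this list was 0.534. The median over the members was 0.05 log2, against -0.04 log2 over all probe sets tested.

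**Figure D2:**
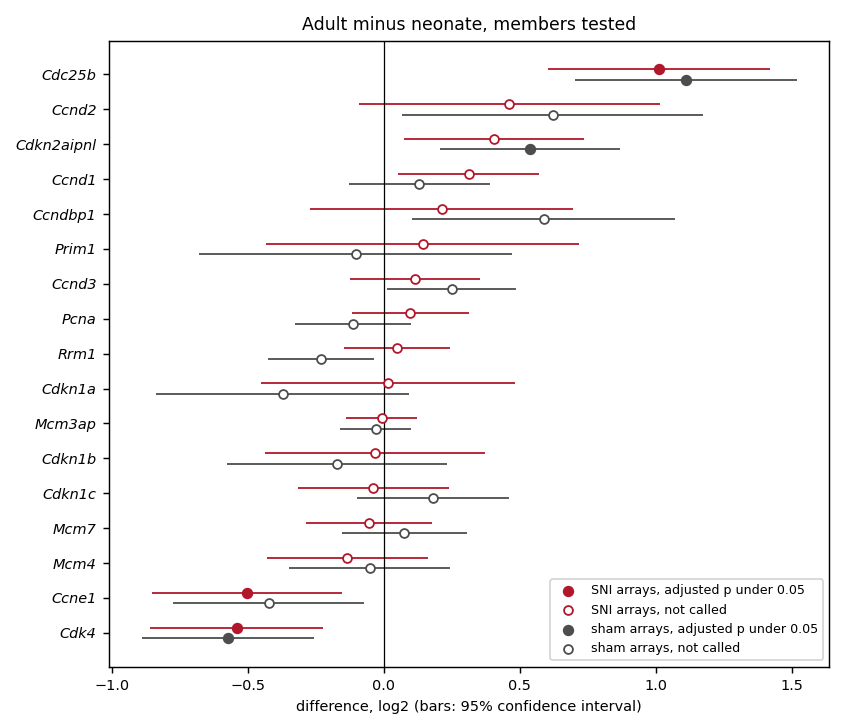
Adult minus neonate difference (horizontal axis, log2) of each tested member in SNI arrays (red) and sham arrays (grey), with bars for the 95% confidence interval and filled points for an adjusted p under 0.05. Values are from the fit without the replicate block. Cdc25b lies near 1 log2 and Cdk4 near -0.5 log2 in both sets of arrays, and most other intervals include 0.

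Some markers of other cell types also differed with age. Of all probe sets tested, 16.3% were called with age in sham and 20.9% in SNI animals. Of 6 measured markers of immature neurons and progenitors 4 were lower in adult than in neonate sham animals, and their mean ran from 8.17 to 8.65 log2 in adult and from 8.78 to 9.10 log2 in neonate sham animals, with Hes5 and Sox11 below the filter level on all arrays. Of 10 tested microglia and macrophage markers 6 were higher, with means of 6.80 to 7.28 log2 in adult and 6.30 to 6.79 log2 in neonate sham animals. Itgam and Cd68 did not pass the filter. Of 5 tested oligodendrocyte precursor markers 1 was higher and 2 were lower, and 1 more did not pass the filter. The 5 had means of 10.25 to 10.35 log2 in adult and 10.49 to 10.65 log2 in neonate sham animals. Of 8 astrocyte markers 3 were higher and 1 was lower. Of 6 myelin markers 2 were lower, and of 7 neuron markers 1 was lower (14.3%, under the share of all probe sets). Of 4 tested dorsal horn neuron markers 2 were lower, and 1 more did not pass the filter. Of 4 tested endothelial markers 1 was higher and 1 lower, and Pecam1 lay below the filter level on all arrays. In SNI animals 5 of the 6 immature neuron and progenitor markers were lower in adults (8.29 to 8.39 log2, against 8.93 to 9.05 log2 in neonates), and 9 of the 10 microglia markers were higher (8.67 to 8.99 log2, against 7.15 to 7.64 log2 in neonates). Ptprc, among the 9, passed the filter mainly through adult SNI arrays. The part of these cell types in the differences of Cdc25b, Cdk4 and Ccne1 was not tested.

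The next comparison, within adults, addressed whether nerve injury changes the division genes of the dorsal horn. Of the 17 tested members 0 passed limma's test, against 2.00% of all probe sets (193 called, or 291 with the replicate number as a block, where members again gave 0). At an unadjusted p under 0.05 there were 2, Ccnd1 and Pcna, or with the block 4, these and Ccndbp1 and Cdkn1c. By p Ccnd1 and Pcna ranked 440 and 516 of the 9638 probe sets. With the block Ccnd1, Pcna, Ccndbp1 and Cdkn1c ranked 364, 507, 405 and 1120. Without the block Cdkn1c ranked 833 at an unadjusted limma p of 0.0565, so fewer than 833 probe sets lay under 0.05. With the block Rrm1 ranked 1433 at an unadjusted limma p of 0.0526, so fewer than 1433 did. Here and in the SNI comparisons below, the exact share of all probe sets at this threshold was not counted. Again without the block, limma with trended, robust variances also called 0. Arrays of the 2 groups did not overlap for 0 of the 17, against 1.78% of probe sets. The differences ran from -0.39 to 0.32 log2 with a median of -0.01 log2, against -0.03 log2 over all probe sets. In the fit without the block, each of the 17 single 95% confidence intervals lay between -0.87 and 0.68 log2. Changes of 2-fold or more fell outside all of them.

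Ccnd1, the D cyclin that couples growth signals to the cycle, measured 8.82, 9.07, 9.32, 8.88, 9.23 and 9.30 log2 in adult SNI animals, against 8.65, 8.82, 8.57, 8.83, 8.98 and 8.83 log2 in adult sham animals. SNI arrays 2, 3, 5 and 6 lay above all sham arrays, and the groups overlapped through arrays 1 and 4. Within same-numbered arrays SNI was above sham in 6 of 6 pairs. Here and below, pairs are given for Ccnd1, Pcna, Rrm1 and Ccndbp1, the most one-sided of the tested members in adults. In neonates SNI was above sham in 4, 3, 2 and 4 of 6 pairs of these genes. The share of all probe sets with 6 of 6 such pairs was not counted, so no result is drawn from them. The Ccnd1 difference in adults was 0.32 log2 (SE 0.13, limma adjusted p = 0.388, or SE 0.09 and adjusted p = 0.0748 with the replicate block). A second Ccnd1 probe set gave 0.30 log2 (adjusted p = 0.201) and the other 0.05 log2 (adjusted p = 0.989). Pcna, the sliding clamp of replication and repair, measured 10.31, 10.51, 10.82, 10.68, 10.44 and 10.46 log2 in adult SNI animals, against 9.82, 10.29, 10.45, 10.54, 10.34 and 10.28 log2 in adult sham animals. The groups overlapped, with the first sham array the lowest, and SNI was above sham in 6 of 6 same-numbered pairs. The difference was 0.25 log2 (SE 0.10, limma adjusted p = 0.47, or 0.128 with the block).

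Rrm1 had a difference of 0.17 log2 after SNI in adults (limma adjusted p = 0.727, or 0.353 with the block). It was higher after SNI in 6 of 6 same-numbered pairs. Mcm4 had 0.07 log2 (adjusted p = 0.978) and Mcm7 -0.12 log2 (adjusted p = 0.919). The phosphatase and the kinase that differed with age had small differences after injury, Cdc25b -0.16 log2 (SE 0.20, adjusted p = 0.942) and Cdk4 0.06 log2 (SE 0.15, adjusted p = 0.984). Ccne1 had -0.32 log2 (SE 0.17, adjusted p = 0.697), Ccnd2 0.13 log2 and Ccnd3 -0.10 log2. The lowest difference was that of Ccndbp1 (-0.39 log2, adjusted p = 0.77, or 0.0816 with the block), which was lower after SNI in 6 of 6 same-numbered pairs, while Cdkn2aipnl had -0.12 log2, Mcm3ap -0.02 log2 and Prim1 -0.01 log2. Of the inhibitors Cdkn1a had 0.21 log2, Cdkn1b 0.09 log2 and Cdkn1c -0.27 log2 (adjusted p = 0.926, 0.978 and 0.653). The first SNI array was the highest for Cdkn1a, at 7.77 log2, while the 5 others ran from 6.74 to 7.00 log2.

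Of 12 microglia and macrophage markers 10 were tested. All 10 rose in these same adult arrays, with means of 8.67 to 8.99 log2 after SNI and 6.80 to 7.28 log2 in sham animals. Ptprc passed the filter mainly through adult SNI arrays (4.02 to 5.53 log2, against at most 3.08 log2 in adult sham animals). Cx3cr1 likewise had every adult SNI array above the level, against a mean of 3.24 log2 in adult sham animals. For both genes the filter itself favoured a rise. The median difference was 1.71 log2 over the 10 tested markers and -0.01 log2 over the 17 division genes, and Itgam and Cd68 did not pass the filter. No other marker list with a tested gene had a call in either SNI comparison. The T cell list had 0 tested genes and could not have a call.

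In neonates 0 of the 17 members passed limma's test after SNI, against 0.311% of all probe sets, and 0 had an unadjusted p under 0.05. Trended, robust variances also gave 0 calls, and the groups did not overlap for 0 members, against 0.467% of probe sets. The differences ran from -0.25 log2 for Prim1 to 0.29 log2 for Ccnd2, with a median of -0.02 log2 against -0.01 log2 over all probe sets. Prim1 had -0.05 log2 without neonate sham 3, its highest array, and between -0.39 and -0.08 log2 without neonate SNI 3 or 5. Ccnd2 had 0.53 log2 without neonate SNI 3, and 0.15 to 0.19 log2 without neonate sham 3 or neonate SNI 4 or 5. The single 95% confidence intervals lay between -0.83 and 0.84 log2 in the fit without the block. Ccnd2 measured 8.20, 7.72, 6.94, 8.66, 8.80 and 8.51 log2 in neonate SNI animals, against 7.60, 7.84, 7.35, 8.25, 8.11 and 7.96 log2 in neonate sham animals. The SNI arrays held both the lowest and the highest values (SE of the difference 0.27, limma adjusted p = 1). Ccnd1 had a difference of 0.14 log2, Pcna 0.04 log2, Mcm4 0.16 log2 and Cdk4 0.03 log2. Ccne1 had -0.24 log2, Cdkn1a -0.17 log2, Rrm1 -0.11 log2, Cdc25b -0.06 log2 and Cdkn1c -0.05 log2. For Cdkn1b, Mcm3ap, Ccndbp1, Cdkn2aipnl, Mcm7 and Ccnd3 the difference lay between -0.05 and 0.03 log2. Of the microglia markers 8 of 10 rose in these arrays, with means of 7.15 to 7.64 log2 after SNI and 6.30 to 6.79 log2 in sham animals.

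**Figure D3:**
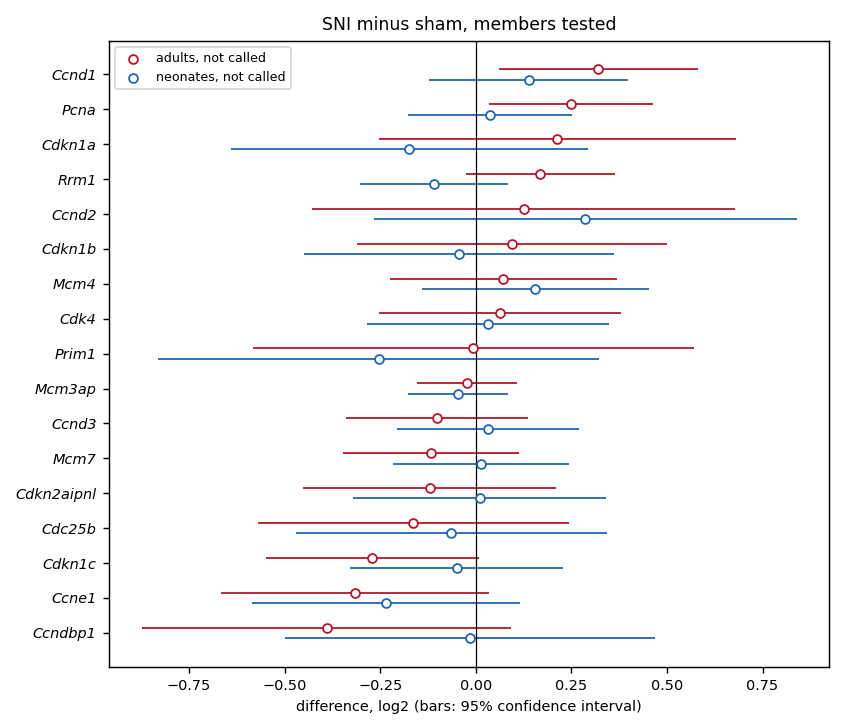
SNI minus sham difference (horizontal axis, log2) of each tested member in adults (red) and neonates (blue), with bars for the 95% confidence interval. Values are from the fit without the replicate block. All points are open because no member had an adjusted p under 0.05, and all intervals lie between -0.87 and 0.84 log2.

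The effect of SNI in adults was also set against that in neonates. No member differed in limma (0 of 17, against 0.228% of all probe sets), and the trended, robust fit also called 0. With the replicate block 0 were called as well. Rrm1 was the only member with an unadjusted p under 0.05 (with the block Ccndbp1 and Cdkn1a as well), with a difference of 0.28 log2 between the effects (SE 0.13, adjusted p = 1). By its limma p of 0.0477, just under the threshold, Rrm1 ranked 228 of the 9638 probe sets, or 317 with the block. With the block Ccndbp1 ranked 361 and Cdkn1a 492. Cdkn1a had 0.39 log2 (SE 0.32), Pcna 0.21 log2 (SE 0.15) and Ccndbp1 -0.38 log2 (SE 0.33).

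Among members under the filter, Cdk1, the kinase of mitosis, was the one in which SNI and sham arrays of adults did not overlap. It measured 3.61, 3.84, 4.31, 3.68, 3.61 and 3.62 log2 in adult SNI animals, against 3.57, 2.54, 3.21, 2.45, 3.44 and 3.14 log2 in adult sham animals. Neonate SNI animals had 3.64, 3.60, 4.35, 3.45, 3.79 and 3.80 log2, and neonate sham animals 3.63, 3.61, 4.13, 3.57, 3.62 and 4.00 log2. The mean was 3.78 log2 in adult SNI, 3.06 log2 in adult sham, 3.77 log2 in neonate SNI and 3.76 log2 in neonate sham animals, so adult sham was the lowest group, and 5 of the 24 arrays lay above the filter level. With no filter on low values the SNI effect in adults was 0.72 log2 (SE 0.19, limma adjusted p = 0.0739). Without the filter 1.41% of 15866 probe sets were called in this comparison, and groups did not overlap in 1.34%. The age difference in sham animals was -0.70 log2 (SE 0.19, adjusted p = 0.0231, against 8.45% of probe sets called), and both differences use the adult sham arrays. Within neonates the SNI effect was 0.01 log2 (adjusted p = 1). The test of whether the SNI effect differed between the ages gave 0.71 log2 (SE 0.27, adjusted p = 1).

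Other members under the filter behaved differently from one another without a filter. Ccne2, the second cyclin E, measured 3.24, 3.60, 4.30, 3.55, 3.19 and 3.66 log2 in adult SNI animals, against 2.24, 3.12, 3.19, 3.07, 2.44 and 3.08 log2 in neonate SNI animals. The groups met at a single value, and the difference was 0.73 log2 (SE 0.20, limma adjusted p = 0.0179, against 11.5% of probe sets called), with 1 adult SNI and 1 adult sham array above the level. In sham animals its difference with age was 0.42 log2 (adjusted p = 0.26). Mcm6 had 3.10, 3.10, 3.14, 3.13, 3.07 and 2.97 log2 in adult sham animals, against 4.31, 3.31, 3.00, 3.16, 3.93 and 3.87 log2 in neonate sham animals. Neonate arrays 1, 5 and 6 lay above the level, and the difference was -0.51 log2 (SE 0.16, limma adjusted p = 0.0529). Mki67 measured 2.42, 2.33, 2.40, 2.28, 2.23 and 2.29 log2 in adult sham animals, against 2.55, 2.42, 2.69, 2.40, 2.58 and 2.42 log2 in neonate sham animals. The difference was -0.18 log2 (limma adjusted p = 0.0247, against 8.45% of probe sets called), with every array far below the level and the groups overlapping. In SNI animals the age groups of Mki67 did not overlap, as for 5.84% of probe sets without a filter, with a difference of -0.11 log2 (adjusted p = 0.185). Ccnb2 averaged 3.10 log2 after SNI and 2.78 log2 in sham animals among adults (adjusted p = 0.32).

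**Figure D4:**
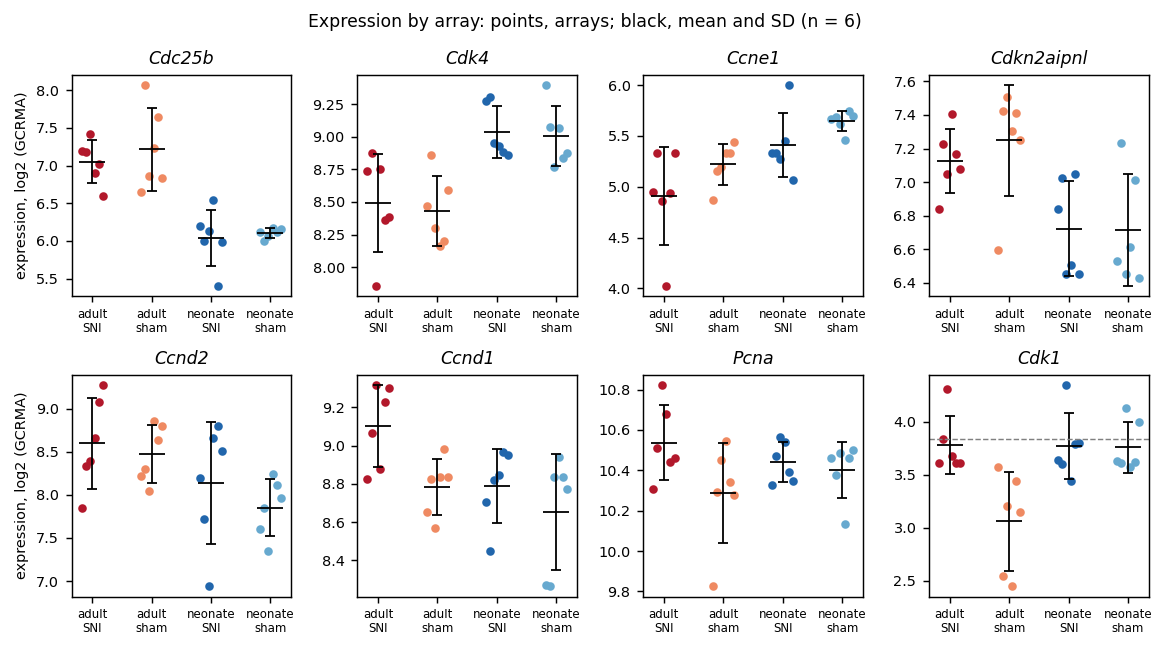
Expression on each array (vertical axis, log2) of 8 members in adult SNI, adult sham, neonate SNI and neonate sham animals, with the mean and SD in black (n = 6) and the filter level dashed for Cdk1. Cdc25b is above the neonates on all adult arrays, Cdk4 is lower in adults, and Cdk1 has its lowest mean, 3.06 log2, in adult sham animals.

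A wider list of other replication, checkpoint and mitosis genes was also mostly below the level. Of 89 symbols 55 had a probe set, 24 were tested, and 30 lay below the level on all arrays (54.5% of the 55, against 30.0% of all genes). In the sham comparison of ages 2 of the 24 were higher and 2 lower in adults (16.7%, against 16.3% of all probe sets; median -0.07 log2), a share close to that of the array as a whole. Stmn1, a microtubule-destabilising protein of neurons and dividing cells, averaged 12.78 ± 0.16 log2 in adult and 12.29 ± 0.03 log2 in neonate sham animals (SD, n = 6 each; limma adjusted p = 4.0e-05). The single-strand DNA binding subunit Rpa1 rose by 0.36 log2 (adjusted p = 0.0109). The histone variant gene H2az1 fell by 0.41 log2 (adjusted p = 4.9e-04), as did Tfdp1, the partner of E2F factors, with -0.41 log2 (adjusted p = 0.0245). After SNI the same comparison had 2 higher and 3 lower (20.8%, against 20.9% of all probe sets), Rpa3 being the additional one (-0.51 log2, adjusted p = 0.0234). In the SNI comparisons 0 of 24 passed limma's test at either age. The smallest p belonged to the primase subunit Prim2 (0.22 log2, adjusted p = 0.519) and the pocket protein Rbl2 (0.21 log2, adjusted p = 0.769) in adults, and to Rpa2 (-0.16 log2) and Cdca3 (0.13 log2) in neonates, both with adjusted p of 1. For the difference between the SNI effects it belonged to Prim2 (0.16 log2) and the flap endonuclease Fen1 (0.17 log2), also with adjusted p of 1.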

How the data were processed

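Per the submitters' processing notes, GCRMA (version not stated there) made the deposited log2 expression values. GCRMA corrects background by probe sequence, normalizes arrays and summarises probe sets. The values were used without further change; many low ones are identical, so differences near the filter level may be understated. Of 15923 probe sets 57 controls were removed; of the other 15866, 12783 had 1 platform gene symbol, 312 several and 2771 none. All 53 symbols of member probe sets matched the current rat gene list by Entrez ID.

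The 24 arrays entered 1 limma fit (3.58.1, R 4.3.3; 20 residual and 3.81 prior degrees of freedom) with a mean per group, over the 9638 probe sets above the filter. P-values are two-sided, adjusted by Benjamini-Hochberg over all of these, with a threshold of 0.05. Confidence intervals are unadjusted. The fit was tested on simulated data. Tables and figures used Python 3.11.15, pandas 2.3.3 and matplotlib 3.10.9.

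The members, lists and tests were chosen with earlier results of these data known. The rule for naming was that every member is accounted for, members that pass a test of the filtered fit get values by array, and of the other cell cycle genes the 4 smallest p in the sham age comparison and the 2 smallest in each SNI comparison are named. Beyond that rule, Ccnd1, Ccnd2, Pcna, Cdk1, Ccne2, Mki67 and Mcm6 were given by array, and Rpa3 was named, after their values were seen.

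Deviations from group means of same-numbered sham and SNI arrays had correlations of 0.1 (just over the limit of 0.1) to 0.56 for adult and 0.24 to 0.61 for neonate pairs, so numbers were taken to pair arrays within an age. The main fit had no block, so its SNI standard errors, p-values and intervals do not use this pairing. For Ccndbp1 in adults the SE of the SNI effect was 0.23 in the main fit and 0.11 with the block. Across ages 21 of 24 same-numbered pairs were over 0.1 (mean 0.32, lowest 0.014), against 22 of 120 pairs with different numbers (mean -0.06). Since not all were over 0.1, the numbers were not taken to pair ages, and the blocked age calls are given as an alternative. The main age fit therefore does not use this shared part. More members and more probe sets passed in the age comparisons with the block. The number as a block, other filters, variance settings, quantile normalization, raised low values, fits of only the groups compared, other probe sets and leaving out each array were tried as alternatives.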

Additional observations from a re-analysis of the deposited data

Results flagged for a closer look

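In 8 of the 68 groups of 6 arrays examined (17 tested members in 4 groups), 1 array stood apart from the 5 others by more than Dixon's 95% critical share of the group's range. Chance flags about 1 in 20 such groups. Pcna was at 9.82 log2 on adult sham 1, with the 5 others from 10.28 to 10.54 log2, and at 10.13 log2 on neonate sham 4, with the others from 10.38 to 10.50 log2. Neonate sham 4 was also low for Mcm4, at 3.82 log2 against 4.42 to 4.63 log2 on the others, and adult sham 1 for Cdkn2aipnl, at 6.60 log2 against 7.25 to 7.51 log2. Mcm4 was high on neonate SNI 3, at 5.04 log2 against 4.42 to 4.53 log2. Ccne1 was at 4.02 log2 on adult SNI 4, where the others had 4.86 to 5.34 log2, and Cdkn1a at 7.77 log2 on adult SNI 1, where the others had 6.74 to 7.00 log2. Prim1 was at 7.10 log2 on neonate sham 3, where the others had 5.67 to 6.16 log2.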

How the results depend on the processing

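In the comparison of ages in sham animals 5 members passed with no filter on low values, the additional ones being Cdk1 and Mki67 (12.5% of 40, against 8.45% of probe sets). With the replicate number as a block 6 passed, the additional ones being Ccnd2, Ccnd3 and Ccndbp1, or 35.3% of members, and 2468 probe sets passed (25.6%) against 1573. In the SNI animals the replicate block also gave 6 members, with Ccnd1, Ccnd2 and Cdkn2aipnl added, against 2942 probe sets (30.5%). The numbers were not taken to pair arrays across ages. Without any 1 array the counts of members were 2 to 3 in sham and 2 to 4 in SNI animals. Cdc25b and Cdk4 passed in both age comparisons under every alternative that tested them. The dimmer probe set of Cdkn2aipnl turned its sham difference to -0.0364 log2, by using other probes of the gene. Ccne1 lost its call in SNI animals with no filter (adjusted p = 0.0724) and with only those groups fitted (adjusted p = 0.121), while in sham animals with only those groups fitted Ccne1 and Ccnd2 passed (adjusted p = 0.00949 and 0.0299) and Cdkn2aipnl did not (adjusted p = 0.0546).

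In both SNI comparisons and in the difference between them 0 members passed under any alternative. Over all probe sets, the SNI effect in adults gave 106 calls with a filter at the 60th percentile, which tests fewer probe sets, and 291 with the replicate block, against 193. The effect in neonates gave 18 with only those groups fitted, against 30, and the difference between the effects gave 6 with the stricter filter, against 22. The replicate block changed no call of a member in the SNI comparisons. Where no construction is named, the cause was not tested. Signal over background limits the 23 members under the filter level.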

Other observations

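Identical deposited values recur within probe sets. Ccne1 had exactly 5.34 log2 (equal to 6 decimals) on 6 of the 24 arrays and Mcm3ap exactly 5.73 log2 on 9, although both lay above the filter level on every array. At least 6 arrays shared a value in 2 of the 17 tested members, against 12.4% of the 9638 probe sets tested, and in 19 of the 23 members not tested. Cdc25b, Cdk4, Ccnd2, Pcna and Mcm7 had 24 different values. The Ccne1 values shared this way came from 2 adult SNI, 2 adult sham and 2 neonate SNI arrays and from 0 neonate sham arrays.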
